A study of Mus musculus with 3 samples.

Results

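The 10 genes described here encode ligands, receptors and inhibitors of the interleukin 1 (IL-1) and IL-18 systems, and were chosen by symbol out of 55536 genes in the tables, of which 22028 are protein-coding. They are Il1a, Il1b, Il1rn, Il18, Il18bp, Il1r1, Il1r2, Il1rap, Il1rl1 and Sigirr, and each was found once in every library. Their RNA was measured by total RNA sequencing of the chromatin fraction (nascent and chromatin-retained RNA) after depletion of ribosomal RNA. The cells were bone-marrow-derived macrophages of C57BL/6J mice, which are cultured from marrow progenitors. All 3 libraries belonged to 1 group. The cells had received 100 ng/ml Lipid A, the part of bacterial lipopolysaccharide that TLR4 recognises, for 12 h. They were then washed, left for 12 h without it, and exposed again to 100 ng/ml Lipid A for 10 min. The replicates were separate biosamples under 1 donor identifier, made from 1 µg (replicate 1), 250 ng (replicate 2) and 500 ng (replicate 3) of RNA. No untreated or singly stimulated cells were analysed here, so every comparison lies between genes within a library or between replicates, and no value below is a response to Lipid A.

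IL-1α and IL-1β (Il1a, Il1b) are inflammatory cytokines that bind the receptor IL-1R1 (Il1r1), which then recruits the accessory chain IL-1RAcP (Il1rap) to signal. The IL-1 receptor antagonist (Il1rn) occupies IL-1R1 without recruiting the accessory chain, and the decoy receptor IL-1R2 (Il1r2) binds IL-1 without signalling. IL-18 (Il18) acts through a related receptor pair and is neutralised by the secreted IL-18 binding protein (Il18bp). Sigirr encodes a receptor-like inhibitor of the family, and Il1rl1 (ST2) the receptor for IL-33, a related cytokine. Macrophages are a known source of IL-1 and IL-18, and the precursors of IL-1β and IL-18 are cut to their active forms by caspase-1.

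Totals of expected counts on genes were 13538605, 19949204 and 18224466 in replicates 1, 2 and 3, and log2(TPM + 0.1) correlated between replicates at 0.943 to 0.952 (Pearson's r over 24595 genes, which are not independent replicates). All 10 macrophage markers, such as Adgre1 and Csf1r, were at 1 TPM (the deposited length-scaled level) or more in every library, with a summed level of 765 to 1054 TPM. Of 30 markers of 8 other cell types, 2 passed that level in the gene tables, the endothelial markers Kdr at 5.72 ± 4.04 and Pecam1 at 1.70 ± 0.263 TPM (SD, n = 3). In those tables all listed NK cell and epithelial markers were at 0, as were S100a8, S100a9, Ly6g and Elane of neutrophils. A second set of tables, made straight from the reads and here called read-based, put 5 of the 30 past 1 TPM in every library. These were Pecam1 and Kdr, the T cell markers Cd3d (mean 13.7 TPM) and Cd8a (2.55 TPM), and the neutrophil marker Mpo (1.90 TPM). Eomes, Epcam and S100a8 averaged 0.886, 0.449 and 0.198 TPM there, and the part of other cells in the levels below was not tested. Protein-coding genes held 27.3% to 30.9% of each library's TPM, which is scaled to a fixed sum.

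By mean TPM, the RNA of the IL-18 inhibitor was the most abundant of the 10, followed by that of IL-18 itself. The 2 IL-1 agonists came next, then the antagonist, with every receptor gene lower. Il18bp stood at 76.3, 62.0 and 41.5 TPM in replicates 1, 2 and 3, and 95.1% of protein-coding genes had a lower mean. Il18 stood at 33.9, 22.4 and 17.8 TPM. For both genes replicate 1 was highest and replicate 3 lowest, and the ranges of the genes did not overlap. Il1b stood at 6.95, 10.9 and 3.53 TPM and Il1a at 6.29, 6.46 and 4.28 TPM, so their ranges overlapped, with replicate 3 lowest for both. Il1rn stood at 3.27, 2.00 and 1.41 TPM, below both agonists in each library. Il1rap was at 1.04, 1.09 and 1.16 TPM, from 39, 51 and 59 expected counts. Its relative spread was the smallest in the gene tables (coefficient of variation 5.50%). That rank did not hold in the read-based tables, where Il1rap was at 1.32 ± 0.280 and Il1r1 at 0.489 ± 0.0723 TPM. Parts of this order depend on length scaling. In CPM (library-scaled counts), Il1rap exceeded Il1rn in replicates 2 and 3, at 2.56 and 3.24 against 2.16 and 1.81. In replicate 1 it was lower, at 2.91 against 4.58. Il1rap also exceeded Il1b in replicate 3, at 3.24 against 2.14 CPM, and Il1a exceeded Il18 in replicate 2, at 9.43 against 9.12 CPM. Fewer cells that transcribe a gene and less RNA per cell cannot be told apart in these bulk libraries.

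The other receptor genes were at the edge of detection. Sigirr was at 0.27, 0.67 and 0.29 TPM, from 6, 18 and 6 expected counts. Il1r1 was at 0.28, 0.06 and 0.05 TPM, from 17, 5 and 4 counts, with exact Poisson 95% intervals of 9.90 to 27.2, 1.62 to 11.7 and 1.09 to 10.2 counts. Replicate 1 alone sets the gene-table mean of Il1r1, which is 0.130 TPM with it and 0.055 TPM without it. In the read-based tables replicate 1 was instead the lowest for Il1r1, at 0.418 TPM against 0.562 and 0.487 TPM in replicates 2 and 3. Il1r2 was at 0.18, 0.1 and 0.12 TPM, from 2, 2 and 1 counts, and at or under 3 counts its level cannot be told from 0 at this depth. Il1rl1 was listed at 0 in all 3 gene tables. A count of 0 allows up to 0.222, 0.150 and 0.165 CPM (library-scaled counts) in replicates 1, 2 and 3, the value of 3 counts. Such limits and intervals hold for counting error alone, as the labels name no molecular identifiers and PCR copies may be counted. The deposited credibility intervals of the 4 genes overlapped in each library, at 0.034 to 1.30 TPM for Il1rl1 and 0.172 to 1.05 TPM for Il1r1 in replicate 1. Some of these intervals exclude the listed TPM, as for Il1rl1 at 0 and for Sigirr at 0.27 TPM (0.494 to 2.63) in replicate 1. They do not separate the 4 receptor genes within 1 library. The Poisson intervals of counts separate some pairs, such as Il1r1 (9.90 to 27.2) and Il1rl1 (0 to 3.69) in replicate 1. In replicate 2 they separate Sigirr (10.7 to 28.4) from Il1r2 (0.242 to 7.22), and in replicate 3 no pair.

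**Figure D1:**
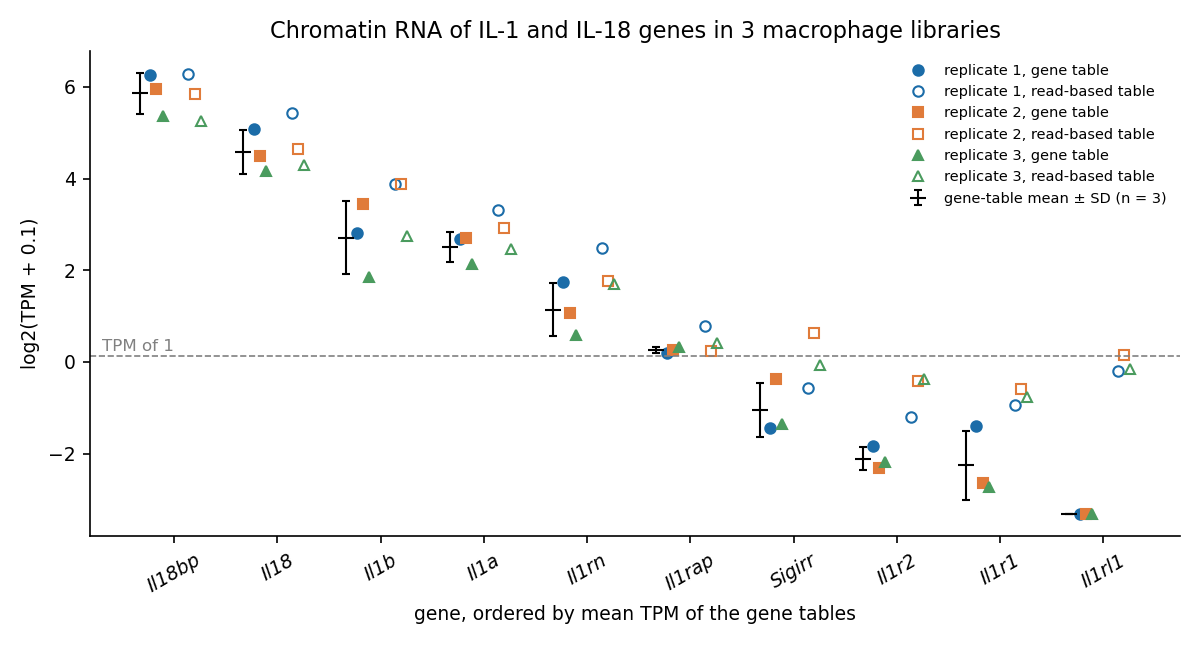
Level of each gene on the log2(TPM + 0.1) scale, with filled symbols for the gene tables and open symbols for the read-based tables, 1 symbol shape per replicate; black bars are the gene-table mean ± SD (n = 3) and the dashed line marks 1 TPM. Il18bp, at 41.5 to 76.3 TPM, lies above every other member, and Il1rl1 is at 0 in the gene tables but at 0.770 to 1.02 TPM in the read-based tables.

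At a threshold of 1 TPM in every library, 6 of the 10 genes were detected (Il18bp, Il18, Il1b, Il1a, Il1rn and Il1rap), against 45.6% of protein-coding genes. At 0.1 TPM 8 of 10 passed, against 55.8%, and at 5 TPM 2 of 10 (Il18bp and Il18), against 32.0%. The median log2(TPM + 0.1) over the 10 genes was 0.70 ± 0.26, beside -0.43 ± 0.13 over all protein-coding genes (SD over 3 libraries). Within the list, all 5 genes for ligands and the soluble inhibitor passed 1 TPM, and of the 5 receptor genes only Il1rap did. Summed over the 10 genes the level was 128, 106 and 70.1 TPM in replicates 1, 2 and 3, equal to 0.0429%, 0.0342% and 0.0256% of the TPM on protein-coding genes.

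Inhibitors were next compared with the ligands they oppose, within each library, on the log2(TPM + 0.1) scale. With 3 libraries the exact two-sided sign-flip test cannot go below p = 0.25, so no single difference could pass a threshold of 0.05. P-values were adjusted over the 8 differences by the Benjamini-Hochberg method. For IL-18 the inhibitor was the higher of the pair. Il18bp, at 59.9 ± 17.5 TPM, exceeded Il18, at 24.7 ± 8.33 TPM, by 1.28 ± 0.16, a 2.43-fold difference (SD, n = 3; exact p = 0.25, adjusted 0.40). The difference was 1.17, 1.47 and 1.22 in replicates 1, 2 and 3, the smallest spread of the 8 differences, with TPM ratios of 2.25, 2.77 and 2.33. Without length scaling, on CPM, the difference was 3.11.

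For IL-1 the inhibitor was the lower of each pair. Il1rn, at 2.23 ± 0.950 TPM, differed from Il1b, at 7.12 ± 3.67 TPM, by -1.57 ± 0.71, which puts Il1b 2.97-fold higher (exact p = 0.25, adjusted 0.40; same sign in 3 of 3 libraries). The difference was -1.06, -2.39 and -1.27, with replicate 2 apart, the library in which Il1b was highest. On CPM without length scaling it was -0.61. Both levels include TPM assigned to transcripts annotated as noncoding, with 59.4% of the Il1b TPM on Il1b-203 and 37.7% of the Il1rn TPM on Il1rn-206. Chromatin RNA includes nascent RNA, and whether reads assigned to Il1b-203 came from unspliced precursor of Il1b-201 was not tested. The coding Il1b-201 stood at 2.94, 3.85 and 1.20 TPM in replicates 1, 2 and 3. Across all its transcripts, Il1rn-206 included, Il1rn exceeded that level in replicates 1 and 3, at 3.27 and 1.41 TPM. The coding Il1rn-201 (1.09, 0.64 and 0.61 TPM) and Il1rn-204 (0.87, 0.47 and 0.23 TPM) were below Il1b-201 in each library, singly and added together. Il1rn differed from Il1a, at 5.68 ± 1.21 TPM, by -1.37 ± 0.39 (exact p = 0.25, adjusted 0.40; 3 of 3 libraries). By gene-level TPM the 2 agonists were not ordered. Il1a minus Il1b was -0.14, -0.74 and 0.27, with a mean of -0.20 ± 0.51 (exact p = 0.75, adjusted 0.75). The Il1a transcript is longer, at 1974 bases against 1356 for Il1b-201 and 689 for Il1b-203. By CPM without length scaling Il1a was the higher of the pair, by 1.10. Set against Il1b-201 alone, Il1a was also higher in each library, at 6.29, 6.46 and 4.28 against 2.94, 3.85 and 1.20 TPM.

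Among the receptor genes of the list, that of the shared accessory chain had the highest mean TPM. Receptor genes of the family outside the list were not all lower. In the gene tables Il1rl2 was at 0.97, 0.79 and 1.47 TPM in replicates 1, 2 and 3, against 1.04, 1.09 and 1.16 for Il1rap. In the read-based tables Il18rap, Il18r1 and Il1rapl2 averaged 8.10, 4.81 and 2.48 TPM, against 1.32 TPM for Il1rap. Il1rl2 and Il1rapl1 averaged less than Il1rap there, at 1.23 and 0.266 TPM. Il1rap exceeded Il1r1 by 1.58, 2.89 and 3.07 in replicates 1, 2 and 3, with a mean of 2.52 ± 0.81 (exact p = 0.25, adjusted 0.40). That size rests on the 4 to 17 counts of Il1r1, and was 0.90 at a pseudocount of 1, 3.37 at 0.01 and 1.26 by read-based levels. Sigirr minus Il1r1 was -0.04, 2.27 and 1.38, with a mean of 1.20 ± 1.16 (exact p = 0.50, adjusted 0.667), and replicate 1 went against the other two. Il1r2 minus Il1r1 averaged 0.14 ± 0.52 (exact p = 0.75, adjusted 0.75) and changed sign between libraries. Il1rl1 was listed at 0, so its difference from Il1r1 is set by the pseudocount, at -0.17 with 1 and -3.42 with 0.01, and is not read here. It had the opposite sign, 0.70, in the read-based tables. Ranked by mean TPM, the order was Il18bp, Il18, Il1b, Il1a, Il1rn, Il1rap, Sigirr, Il1r2, Il1r1 and Il1rl1. Il1b with Il1a and Il1r2 with Il1r1 did not differ beyond their spread over libraries. The order among Sigirr, Il1r2, Il1r1 and Il1rl1 is unsettled, since it rests on 0 to 18 expected counts a library and on credibility intervals that overlap.

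**Figure D2:**
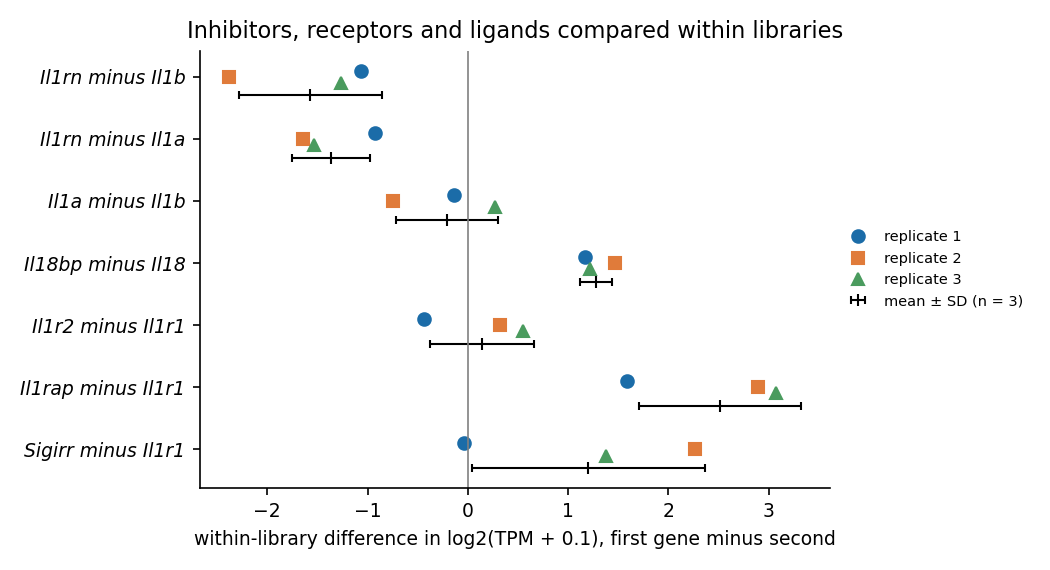
Within-library difference in log2(TPM + 0.1), first gene minus second, for 7 of the 8 gene pairs; coloured symbols are the replicates, black bars the mean ± SD (n = 3), and a value right of the grey line means that the first gene is higher. Il18bp minus Il18 lies at 1.17 to 1.47 and Il1rn minus Il1b at -2.39 to -1.06, while Il1a minus Il1b and Il1r2 minus Il1r1 cross 0.

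Differences between replicates were examined with an edgeR goodness-of-fit test, which asks whether a gene's counts vary more than the trend for genes of its level. Of 14789 genes tested, 1.13% were called at an adjusted p below 0.05, and none of the 6 members kept by the filter on low counts. At an unadjusted p below 0.05 in this test there were 922 of the 14789 genes, among them Il18, Il1b and Il18bp of the 6 members tested. Il18 came nearest, at 16.5, 9.25 and 8.11 TMM-scaled CPM in replicates 1, 2 and 3 (edgeR adjusted p = 0.276). Il1b was at 4.94, 5.99 and 2.24 (adjusted p = 0.561) and Il18bp at 124, 92.4 and 70.6 (adjusted p = 0.594). Il1rn, Il1a and Il1rap had adjusted p-values of 0.887, 1.000 and 1.000 in the same test. Replicate 1, which was highest for Il18, Il18bp and Il1rn, also had the largest RNA input and the smallest total count, and with 1 library at each input these cannot be told apart from the replicate itself.

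By annotated transcript, the largest part of the Il1b TPM in the gene-table format was assigned to Il1b-203. It is annotated as a short RNA that keeps an intron at the 5′ end of the gene. It took 57.7%, 54.4% and 66.0% of the gene's TPM in replicates 1, 2 and 3 (59.4% ± 5.99, SD, n = 3), against 37.2% ± 4.44 for Il1b-201, the RNA that encodes the 269-residue IL-1β precursor. The shares depended on the measure, and reads of unspliced Il1b precursor in the kept intron were not told apart from Il1b-203. By expected counts Il1b-203 held 39.0% and Il1b-201 60.2%, since TPM is per length and Il1b-203 has 689 bases against 1356. In the read-based tables Il1b-203 held 33.6% and Il1b-201 26.4% of TPM, with 40.0% on the noncoding Il1b-202. Il1a has 1 annotated transcript, which encodes 270 residues.

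Il1rn has 2 annotated start regions, 8431 bases apart. The downstream start gives Il1rn-201, the 178-residue form that is secreted, and the upstream start gives Il1rn-204, a 159-residue form known as intracellular. Transcripts of the downstream start held 70.3%, 75% and 76.1% of the gene's TPM (73.8% ± 3.04), and those of the upstream start 26.2% ± 3.04. Of the downstream share, about as much lay on the noncoding Il1rn-206, at 37.7% ± 4.99 of the gene's TPM, as on Il1rn-201, at 36.1% ± 5.98. The transcripts of the downstream start together held 57.2% by expected counts and 85.3% in the read-based tables, so they were the larger part in each measure. These sums include Il1rn-206, which lies within the span of Il1rn-204, and whether its reads came from unspliced RNA of the upstream start was not tested. By expected counts Il1rn-201 was at 25.74, 18.84 and 17.49 in replicates 1, 2 and 3, against 26.26, 17.56 and 8.51 for Il1rn-204. The counts behind these shares are small, with 62, 43 and 33 for the whole gene.

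The promoters of the 2 agonists and of both Il1rn starts are shown because these are the genes whose levels were set against each other and whose transcripts divide by start. RefSeq windows were found for 9 of the 10 genes. Each shown is the 250 bases before a RefSeq start (GRCm38.p6, the mm10 build), written 5′ to 3′ on the gene's strand, with matches to any searched motif in capitals.
Il1a (chr2:129309973-129310222, minus strand): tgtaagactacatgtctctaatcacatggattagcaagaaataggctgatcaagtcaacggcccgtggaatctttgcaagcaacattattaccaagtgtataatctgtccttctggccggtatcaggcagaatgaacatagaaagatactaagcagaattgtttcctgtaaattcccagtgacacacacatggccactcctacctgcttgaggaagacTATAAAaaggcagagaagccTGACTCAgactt
Il1b (chr2:129371140-129371389, minus strand): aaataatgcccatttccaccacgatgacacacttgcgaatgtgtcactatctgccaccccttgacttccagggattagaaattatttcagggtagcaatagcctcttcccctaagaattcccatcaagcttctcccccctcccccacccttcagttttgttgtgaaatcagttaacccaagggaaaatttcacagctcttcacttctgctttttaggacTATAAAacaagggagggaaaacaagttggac
Il1rn upstream start (chr2:24336610-24336859, plus strand): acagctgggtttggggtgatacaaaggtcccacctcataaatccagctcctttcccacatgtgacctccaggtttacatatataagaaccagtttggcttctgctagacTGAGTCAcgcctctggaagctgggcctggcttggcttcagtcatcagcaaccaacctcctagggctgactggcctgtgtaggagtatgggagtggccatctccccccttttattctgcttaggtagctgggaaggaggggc
Il1rn downstream start (chr2:24345041-24345290, plus strand): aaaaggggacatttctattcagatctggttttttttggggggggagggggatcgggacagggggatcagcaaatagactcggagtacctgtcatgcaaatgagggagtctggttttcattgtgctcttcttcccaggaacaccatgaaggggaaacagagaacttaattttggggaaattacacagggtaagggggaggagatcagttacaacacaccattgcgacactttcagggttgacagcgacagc
The 6 motifs, searched on both strands, were the TATA box (TATAAA), AP-1 (TGANTCA), CRE (TGACGTCA), a C/EBP half-pair (TTGCNNAA), an IRF pair (GAAANNGAAA) and the κB consensus. Il1a holds a TATA box at positions -32 to -27 and Il1b at -31 to -26, counting back from the start, and 12.4% of 32841 promoter windows of this length hold that motif. Il1a also holds an AP-1 match at -12 to -6 and the upstream Il1rn window one at -141 to -135, which 6.75% of windows hold. The downstream Il1rn window holds none of the 6, which says only that these letters are not in these bases. A C/EBP match lies at -49 to -42 of the Il18bp start (9.57% of windows hold one), and others at -133 to -126 of the upstream Il1r1 start and -34 to -27 of the upstream Il1rl1 start. The only Il18 window found lies nearest Il18-203, which starts at 50554827 and held 12.1% of the gene's TPM. That window holds a TATA match on the other strand at -175 to -170. The Il18 transcripts that held 84.6% of TPM start at 50575273 and have no window here. A κB match lies at -232 to -223 of the start nearest ENSMUST00000114795.2 of Il1r1 (3.90% of windows). The share of windows is 2.98% for the IRF pair and 1.55% for CRE. No match in these windows overlaps another, and a match is a description of the letters, not a measured binding site. The RefSeq upstream start lies 7 bases from that of Il1rn-204, and the downstream one 19 bases from that of Il1rn-201.

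For the accessory chain, the short form led by TPM but not by counts. Il1rap-206, which encodes 360 residues and corresponds to the soluble form without a membrane anchor, held 65.7%, 67.6% and 53.4% of the gene's TPM (62.3% ± 7.68). Il1rap-201, the 570-residue membrane form, held 32.9% ± 6.76. By expected counts the forms were closer, at 44.8% ± 7.87 for Il1rap-206 and 48.2% ± 6.95 for Il1rap-201. In the read-based tables they were at 52.0% and 43.0% of TPM, and at 34.7% and 58.6% of estimated counts. Which of the 2 forms is the larger therefore depends on the length scaling. Another form, Il1rap-202 with 685 residues, held 4.85% ± 2.62.

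For the 2 IL-18 genes every annotated transcript is labelled coding, so no share on transcripts labelled noncoding or intron-keeping could be given. The label does not settle structure. Il18bp-202 has 4 exons and 2596 bases, against 7 exons and 1594 bases for Il18bp-203, so it keeps bases that are intron in Il18bp-203. The signal on those bases was not measured. Il18bp-203 and Il18bp-202, of 193 and 194 codons, held 59.4% ± 4.11 and 40.6% ± 4.11 of the gene's TPM, and 45.8% and 54.2% by expected counts. For Il18, the transcripts ENSMUST00000059081.12 and ENSMUST00000180021.1 encode the 192-residue precursor and differ by 12 exon bases each, so reads are shared and their split is uncertain. Together they held 84.6% ± 2.56 of TPM, beside 46.4% ± 1.5 in the read-based tables. The rest lay on a transcript with a reading frame of 78 codons (12.1% ± 1.75) and one of 192 codons with a start farther upstream (3.25% ± 2.98). These held 26.1% and 27.6% in the read-based tables.

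**Figure D3:**
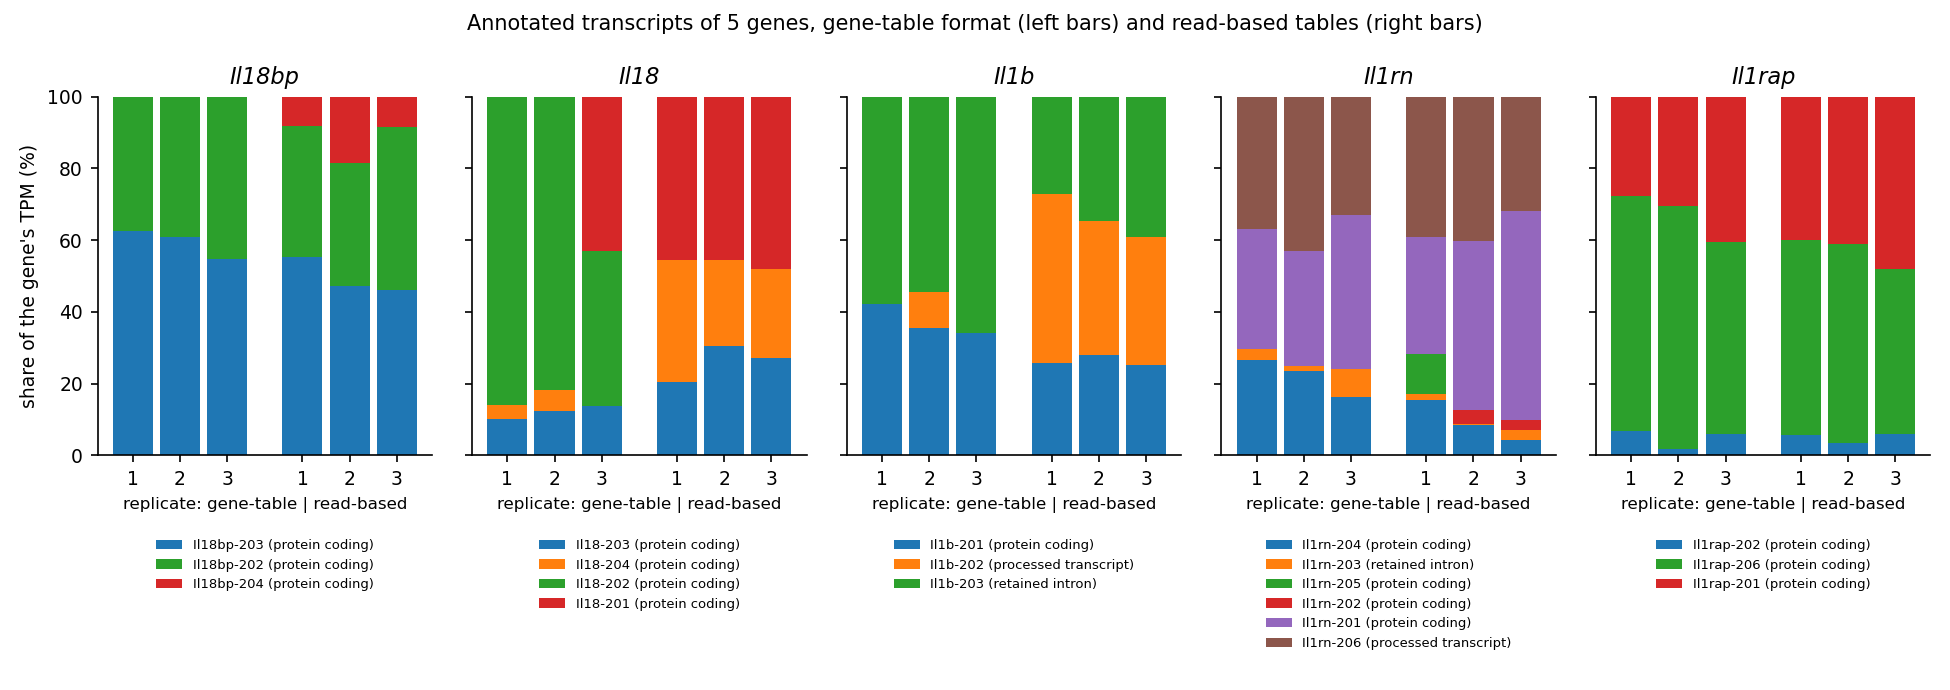
Share of a gene's TPM (%) on each annotated transcript, in replicates 1 to 3 of the gene-table format (left 3 bars) and of the read-based tables (right 3 bars). Il1b-203, which keeps an intron, takes 54.4% to 66.0% of Il1b on the left and 27.2% to 39.2% on the right, and Il1rap-206 takes 53.4% to 67.6% of Il1rap on the left.

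The receptor genes Il1r2, Il1r1 and Il1rl1 lie in a row on chromosome 1 with Il1rl2, Il18r1 and Il18rap, all on the plus strand. For several genes of this row the 2 kinds of table differed. In the gene tables Il1rl2, which encodes the receptor for IL-36, was at 1.08 ± 0.352 TPM and the other 5 at 0.133 TPM or below. Il18r1 and Il18rap, the signalling receptor pair for IL-18, had 0, 0 and 1 and 4, 3 and 9 expected counts. In the read-based tables the same genes had 284, 479 and 423 and 359, 512 and 416 estimated counts, or 4.81 ± 0.0603 and 8.10 ± 1.10 TPM. Il1rl1, at 0 expected counts in every library, had 64, 145 and 100 estimated counts in the read-based tables (0.770, 1.02 and 0.794 TPM), all on the 567-residue transcript ENSMUST00000053043.7. None of the exon bases of that transcript is private to it among annotated transcripts, and its gene ends 136 bases before Il18r1 begins.

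The cause of this difference between the tables was not tested, and the level of Il1rl1 is uncertain. Il1r2 was at 0.133 TPM in the gene tables and 0.552 TPM in the read-based ones, and Il1r1 at 0.130 and 0.489 TPM. All signal of Il1r1 lay on ENSMUST00000114795.2, which has the more downstream start, in the gene-table format. By read-based levels 98.9% lay on ENSMUST00000027241.10, with the upstream start, so the start in use could not be assigned. The pattern was not limited to this row. Of 6819 protein-coding genes at 0 expected counts in every library, 772 (11.3%) had at least 50 estimated counts in every read-based table. Among 11144 protein-coding genes with 10 or more expected counts in each library, the read-based count was 1.67 times the expected one at the median (quartiles 1.46 to 2.09). Read-based levels put 56.2% of protein-coding genes at 1 TPM or more in every library, and 6 of the 10 members, the same 6 genes that were detected in the gene tables.

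**Figure D4:**
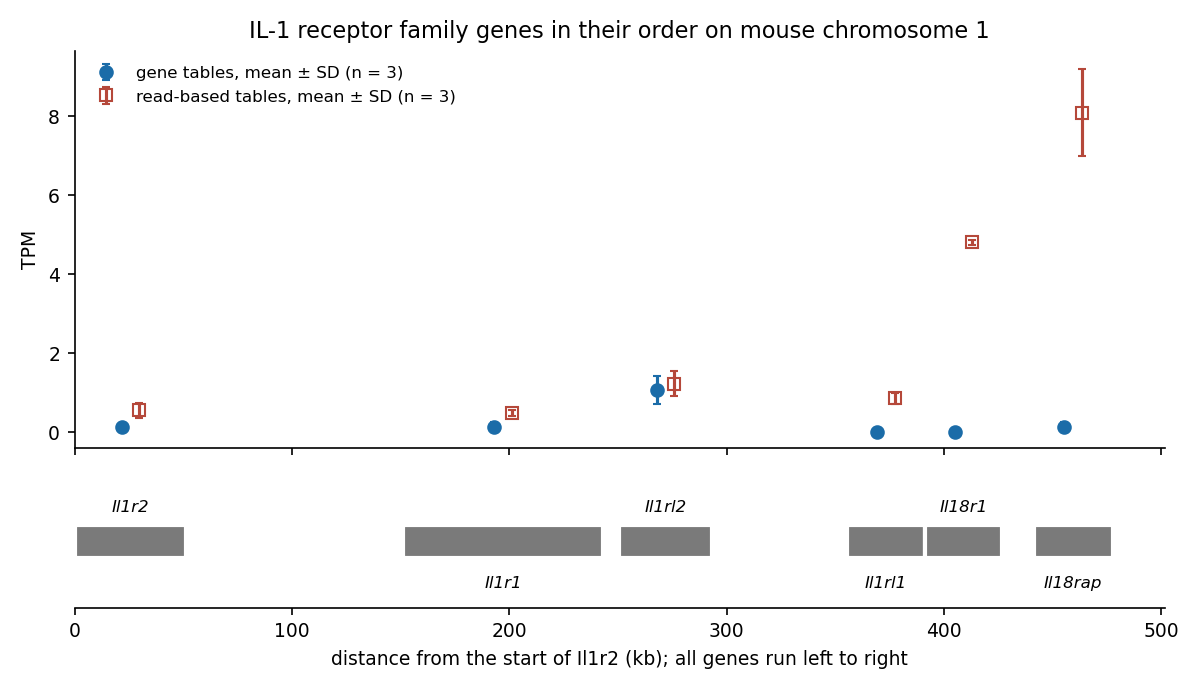
Mean TPM ± SD (n = 3) of 6 receptor genes in the gene tables (filled) and the read-based tables (open), placed by distance in kb from the start of Il1r2, with gene bodies as grey bars below. Il18r1 and Il18rap are at 0.130 TPM or below in the gene tables and at 4.81 and 8.10 TPM in the read-based tables, whereas the 2 tables give 1.08 and 1.23 TPM for Il1rl2.

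The positions of the genes in mm10, from the GENCODE M21 annotation, bear on what a read can be assigned to. Il1b (ENSMUSG00000027398.13, chromosome 2, 129364570 to 129371139, minus strand) lies 54597 bases from Il1a (ENSMUSG00000027399.1, chromosome 2, 129299610 to 129309972, minus strand). Il1rn (ENSMUSG00000026981.15, 24336853 to 24351494, plus strand) is on the same chromosome but far from both. Il18 (ENSMUSG00000039217.13) is at chromosome 9, 50554827 to 50581840, on the plus strand, and Il18bp (ENSMUSG00000070427.4) at chromosome 7, 102014885 to 102018690, on the minus strand. Il1r2 (ENSMUSG00000026073.13) runs from 40074079 to 40125231, Il1r1 (ENSMUSG00000026072.12) from 40225080 to 40317257 and Il1rl1 (ENSMUSG00000026069.15) from 40429570 to 40465415 on chromosome 1. Il1rap (ENSMUSG00000022514.14) is at chromosome 16, 26581704 to 26730117, plus strand, and Sigirr (ENSMUSG00000025494.8) at chromosome 7, 141091175 to 141100572, minus strand.

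Several members share bases with a gene on the other strand, and how strand was treated is not given in the sources used here. Il1a shares 222 exon bases with the noncoding Gm14023, which had 117, 173 and 121 expected counts, close to the 148, 188 and 122 of Il1a. Il1b shares 25 exon bases with the antisense gene Il1bos, which had 7, 2 and 4 expected counts but 184, 375 and 339 in the read-based tables, against 131, 241 and 93 read-based counts of Il1b itself. Il18bp shares 80 exon bases with Numa1, at 3823, 5702 and 5053 expected counts. Reads in such shared bases may belong to either gene, and their part in the levels was not tested.

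Outside the 10 genes, the machinery downstream of the receptors and that for maturing the cytokines was detected in full. All 13 listed adaptors, kinases and ubiquitin ligases were at 1 TPM or more in every library (median log2 level 4.48), as were all 8 genes for cytokine maturation (median 5.29), beside 45.6% of protein-coding genes, and none of these 21 was called in the goodness-of-fit test. Peli1, a ubiquitin ligase that acts on IRAK kinases, was highest of the first list at 77.0 ± 16.1 TPM. Tab2, an adaptor of the kinase TAK1, followed at 73.9 ± 6.72 TPM, and Tab3, its homologue, was lowest at 3.78 ± 0.728 TPM. Gsdmd, the pore-forming gasdermin D, reached 200.2 ± 36.7 TPM and the DNA sensor gene Aim2 131 ± 22.4 TPM, with Nlrc4, an inflammasome component, lowest at 7.82 ± 0.903 TPM. Casp1, the protease that cuts the precursors of IL-1β and IL-18, was at 48.9, 50.1 and 35.0 TPM.

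Of 6 other IL-1 family ligands none was detected in the gene tables, where 45.6% of protein-coding genes were. Il33 was at 0 in every library of both tables, and Il1f8 had 1 expected count in replicate 2. Il1f9, which encodes IL-36γ, was at 0 in the gene tables and at 4.35, 3.58 and 2.69 TPM in the read-based tables. Of 5 other receptor family genes none was detected, with Il1rl2 at 0.970, 0.790 and 1.47 TPM the nearest. Il1rapl1 and Il1rapl2, receptor-like genes known mainly from neurons, were at 0 in the gene tables and at 0.266 ± 0.0925 and 2.48 ± 0.688 TPM in the read-based ones. By read-based levels 1 of the 6 ligands and 3 of the 5 receptors (Il18r1, Il18rap and Il1rapl2) reached 1 TPM in every library.

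**Figure D5:**
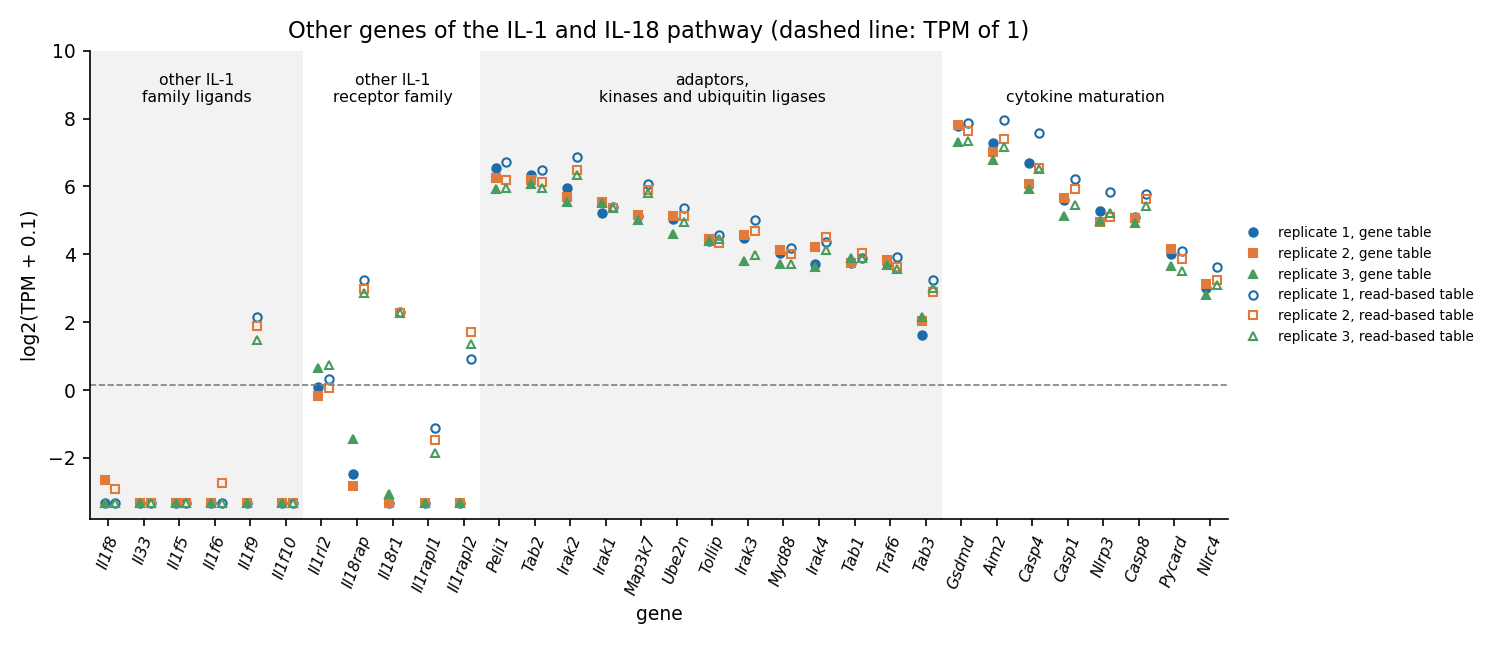
Level of 32 other genes of the pathway on the log2(TPM + 0.1) scale, grouped by list, with filled symbols for the gene tables, open symbols for the read-based tables and 1 symbol shape per replicate. All 13 adaptors and kinases and all 8 maturation genes lie above 1 TPM, while the other ligands and receptors lie below it in at least 1 library of the gene tables.

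The protein-coding genes whose levels over the 3 libraries were nearest to those of Il1b were Sema4c, Hist1h2bc and Aanat, at Euclidean distances of 0.350, 0.433 and 0.438 on the log2(TPM + 0.1) scale. Sema4c was at 5.82, 9.46 and 3.90 TPM, with replicate 2 highest as for Il1b. Nearest to Il1rn were A530064D06Rik, Dcbld2 and Tmprss2, at 0.204, 0.214 and 0.217. With 3 libraries such a likeness describes only these libraries.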

How the data were processed

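Per the labels, total RNA of the chromatin fraction was sequenced in 3 libraries of 1 group. Each library has a deposited gene table of the authors' expected counts and TPM, derived, per the accompanying notes, from reads aligned to the transcriptome (mm10, GENCODE M21). It also gives the bounds of a credibility interval of TPM, a deposited signal value. They also deposited transcript tables of the same format, and read-based transcript tables of estimated counts and TPM. Not given in the sources used here: aligner, quantifiers, versions and strand treatment. The 10 genes, the lists and the tests were chosen with earlier results of these data known.

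Symbols and positions came from GENCODE M21, and the read-based tables were summed per gene, with 86 identifiers absent from them set to 0. Differences between genes were taken within a library on log2(TPM + 0.1) and compared with 0 in an exact sign-flip permutation test (two-sided). Expected counts were rounded for edgeR 4.0.16 (R 4.3.3), in which genes were kept by filterByExpr, scaled by TMM, and fitted with an intercept and a trended dispersion. The deviance was compared with chi-square and adjusted by the Benjamini-Hochberg method, and the step was tested on simulated data. Other steps ran in Python 3.11.15 (pandas 2.3.3, numpy 2.4.6). The replicates share a donor identifier, so p-values reflect only how these libraries vary, which may be partly technical. Named were the 10 genes, in each other list the 2 highest and the lowest gene (with every other receptor), and the 3 genes most like Il1b and Il1rn. Casp1, Il33, Il1f8, Il1f9 and the overlapping genes were named after their values were seen. Alternatives covered the read-based tables, pseudocounts, thresholds, length scaling, normalization, filters, DESeq2 1.42.0 and leaving out each replicate.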

Additional observations from a re-analysis of the deposited data

How the results depend on the processing

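Of the 8 differences between genes, 5 kept their direction under every alternative: the read-based tables, pseudocounts of 1 and 0.01, counts without length scaling, and leaving out each replicate. Their sizes moved, with -0.61 for Il1rn minus Il1b and 3.11 for Il18bp minus Il18 without length scaling, 0.90 to 3.37 for Il1rap minus Il1r1 and 0.21 to 1.85 for Sigirr minus Il1r1. Without length scaling Il1a minus Il1b became 1.10 and Il1r2 minus Il1r1 -1.44, since these genes differ in transcript length, and in the read-based tables Il1rl1 minus Il1r1 became 0.70, for which the cause was not tested. Leaving out 1 replicate gave ranges of -0.44 to 0.065 for Il1a minus Il1b and -0.059 to 0.44 for Il1r2 minus Il1r1, -1.83 to -1.17 for Il1rn minus Il1b and 1.19 to 1.34 for Il18bp minus Il18. The median level of the 10 genes was 1.30 in the read-based tables and 2.40 with TPM rescaled to protein-coding genes, and 2 members passed at 5 TPM. The count of genes called in the goodness-of-fit test was 167 with DESeq2 size factors, 214 without a filter, 271 in the read-based tables, 61 by DESeq2's dispersion outliers and 52 to 68 with 1 replicate left out, which leaves 2 libraries. No member that could be tested was called in edgeR, with 9 tested without a filter and in the read-based tables and 6 otherwise, and with adjusted p from 0.146 to 1.000 for Il1b and 0.276 to 1.000 for Il18. In the read-based tables and by expected counts, the shares were 33.6% and 39.0% for Il1b-203, 85.3% and 57.2% for the downstream Il1rn start, 52.0% and 44.8% for Il1rap-206, and 49.6% and 45.8% for Il18bp-203. By read-based levels 1 other ligand and 3 other receptors passed 1 TPM, and at 0.1 TPM 1 other receptor did. No paired analysis was possible because all libraries belong to 1 group. Few counts limit the receptor genes in the gene tables, with under 20 expected counts a library for Il1r1, Il1r2, Il1rl1 and Sigirr. In replicates 1, 2 and 3 the read-based tables gave 40, 92 and 71 for Il1r1 and 64, 145 and 100 for Il1rl1. They gave 7, 10 and 11 for Il1r2 and 11, 27 and 12 for Sigirr.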
